A study of Mus musculus with 26 samples.

Results

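The comparison set 2 arrays, titled ES13 and ES14 and labelled 129S2/SvPas, against 4 arrays, titled ES21 to ES24 and labelled C57BL/6, out of the 26 mouse arrays of the series. Every array was hybridised with RNA that the labels describe as an embryoid body cell sample, from a source called mouse ES EB, and no treatment, genotype, culture day, sex or age is given for any of the 6. An embryoid body is an aggregate of embryonic stem (ES) cells that differentiates in suspension. The submitters state that there were no technical replicates, and nothing says whether arrays of one set came from separate cultures.

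The 6 arrays were chosen by their measured values: ES13 and ES14 for high signals of primitive streak genes, and ES21 to ES24 for high signals of naive pluripotency genes. The contrast is therefore given as a description throughout, without a test. Strain label and set coincide fully, so the strain cannot be told apart from any other difference between the sets. Each label also covers arrays of another kind. Zfp42, a naive ES cell gene, read 11.36, 11.48, 11.95 and 11.72 in ES21 to ES24, whereas the 8 other C57BL/6 arrays spanned 6.21 to 8.19. Mixl1, a streak gene, was at 10.95 in ES13 and at 8.93 in ES14, whereas the 12 other 129S2/SvPas arrays spanned 4.75 to 5.89.

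Values are log2 intensities on the Affymetrix Mouse Exon array, and a difference of 1 is a 2-fold difference. A gene's value is the median of the brighter 50% of its probe sets, and 18329 genes with at least 4 probe sets were measured. Over these genes ES13 and ES14 correlated at r = 0.982, while ES15, an array labelled C57BL/6, correlated at 0.984 with ES14 and at 0.97 with ES13. Pairs within ES21 to ES24 correlated at 0.971 to 0.991, ES13 with each of those arrays at 0.956 to 0.963, and ES14 with each of them at 0.947 to 0.949.

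Naive pluripotent cells, as in the preimplantation epiblast and in ES cell culture, keep a network of transcription factors sustained by leukaemia inhibitory factor and by low FGF signalling. After implantation the epiblast becomes primed, losing much of that network while keeping Pou5f1, and at gastrulation Wnt, Nodal and BMP signals make part of it form the primitive streak, from which mesoderm and definitive endoderm emerge. The first mesoderm to leave the streak includes Kdr-bearing cells that can give blood and endothelium, and embryoid bodies are known to pass through comparable steps.

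A gene was called higher where the lower of ES13 and ES14 lay at least 1 log2 above the highest of ES21 to ES24, and called lower in the mirrored case. By that rule 152 genes were higher, 0.829% of those measured, and 299 were lower, 1.63%. Nothing is read from counts of listed genes against those shares, because the arrays were chosen on the same contrast. The median difference over all genes was -0.08, and centring each array on its median gene moved it to 0.08, with 189 genes then higher and 237 lower, so that genes called higher made up 44.4% of the calls after centring and 33.7% before it. With ES14 alone set against the 4 arrays, 331 genes were higher and 539 lower, and with ES13 alone 208 and 382. Without ES24, 502 genes were lower. Under the rule, leaving an array out can only keep or add calls. At the edge of the rule, Bend4 (gap of 1.001) lay inside and Zc3hav1l (gap of 0.993) outside among higher genes, and Kat6b (1.002) inside and Adam23 (0.997) outside among lower genes.

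**Figure D1:**
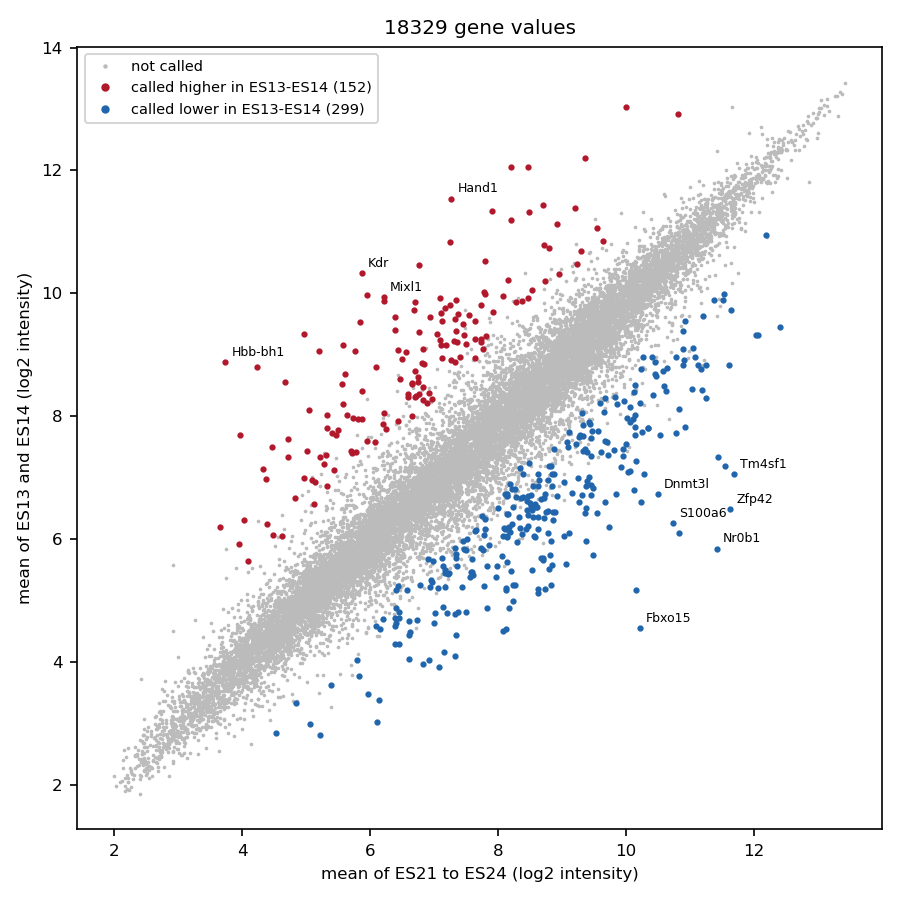
Mean gene value of ES13 and ES14 (vertical axis, log2 intensity) against the mean of ES21 to ES24 (horizontal axis, log2 intensity) for 18329 genes, 1 point a gene. The 152 red points were called higher and the 299 blue points lower; Hbb-bh1, Kdr and Hand1 lie far above the main cloud, and Fbxo15, Nr0b1 and Zfp42 far below it.

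The 4 marker genes split between the sets unevenly. Mixl1, a homeobox factor of the streak, read 10.95 in ES13 and 8.93 in ES14, against 5.62, 6.99, 6.47 and 5.77 in ES21 to ES24. Dppa5a, an RNA-binding protein abundant in naive cells, read 10.12 in ES13 and 8.78 in ES14, against 12.66, 12.52, 12.62 and 11.84 in ES21 to ES24. Both were called, the first higher and the second lower. The primed epiblast markers Dnmt3b, a de novo DNA methyltransferase, and Fgf5, a growth factor ligand, were not. Dnmt3b read 11.23 in ES13 and 10.12 in ES14, against 10.02, 10.27, 10.66 and 11.03 in ES21 to ES24, and Fgf5 8.10 in ES13 and 6.96 in ES14, against 7.48, 7.26, 7.19 and 7.06 in ES21 to ES24. For both primed markers ES13 stood above all 4 C57BL/6 arrays, while ES14 lay within their range for Dnmt3b and below it for Fgf5. By these genes the 2 arrays are not alike, and they are called by their titles here. In bulk RNA such as this, fewer cells of a type and less RNA per cell cannot be told apart.

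The naive network was low in both ES13 and ES14. Of 28 measured naive genes 18 were lower, 1 was higher and 9 were neither, and the median difference was -2.20. By role, 9 of 12 core factors, 8 of 12 naive state markers and 1 of 4 genes of the leukaemia inhibitory factor pathway were lower. Fbxo15, an F-box protein gene used as an ES cell reporter, read 4.70 in ES13 and 4.42 in ES14, against 9.79, 9.94, 11.15 and 9.96 in ES21 to ES24, a 50.1-fold difference of the means. Nr0b1, an orphan nuclear receptor, read 6.40 in ES13 and 5.30 in ES14, against 11.09, 11.55, 11.70 and 11.31 in ES21 to ES24. Zfp42, the zinc finger protein also called Rex1, read 7.12 in ES13 and 5.87 in ES14, against 11.36, 11.48, 11.95 and 11.72 in ES21 to ES24. The sets were over 4 log2 apart for each of these genes, and ES14 had the lowest value of the 6 arrays each time.

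Upstream windows of 2 naive factors show letters on which the pluripotency network is known to act. They are the 250 bases before the annotated start, 5′ to 3′ on the gene's strand, from RefSeq on GRCm38.p6, with the matched motif in capitals. Zfp42 lies on chromosome 8, minus strand, at chr8:43307010-43307259. Its match is the octamer ATTTGCAT, bound by POU factors such as Pou5f1, which 1.6% of all 32851 windows hold on either strand. Nanog has 2 such windows, and the 1 picked here lies on the plus strand at chr6:122707315-122707564. Its match is a SOX and octamer pair, the letters TTGT and ATGCAAA with 1 base between them on either strand, held by 0.0335% of windows. The motifs were picked with the windows in view, and a match marks letters, not a bound site.
Zfp42: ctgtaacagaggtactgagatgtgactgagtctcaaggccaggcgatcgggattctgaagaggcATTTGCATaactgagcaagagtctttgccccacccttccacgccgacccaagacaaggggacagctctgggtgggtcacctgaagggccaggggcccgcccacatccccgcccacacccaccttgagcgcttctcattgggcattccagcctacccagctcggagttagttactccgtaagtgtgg
Nanog: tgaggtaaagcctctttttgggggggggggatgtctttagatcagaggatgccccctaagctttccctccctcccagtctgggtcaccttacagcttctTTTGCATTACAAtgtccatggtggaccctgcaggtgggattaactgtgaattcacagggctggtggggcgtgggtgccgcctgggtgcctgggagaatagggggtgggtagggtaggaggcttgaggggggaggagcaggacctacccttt

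Among the other core factors, Esrrb, an orphan nuclear receptor that activates naive genes, read 6.29 in ES13 and 5.91 in ES14, against 10.60, 10.69, 11.17 and 10.83 in ES21 to ES24. Tfcp2l1, a grainyhead-family factor downstream of Stat3, read 6.71 in ES13 and 6.77 in ES14, against 9.72, 9.69, 10.16 and 9.82 in ES21 to ES24. Klf4, a Krüppel-like factor, read 6.71 in ES13 and 6.81 in ES14, against 9.00, 9.26, 9.40 and 8.96 in ES21 to ES24. Esrrb, Tfcp2l1 and Klf4 were as low in ES13 as in ES14, to within 0.39 log2, though the rule had asked both arrays to be low. Zfp42 and Nr0b1 were 1.25 and 1.11 higher in ES13, and no core factor was as much as 1 log2 lower there. The sets were less far apart for Nanog, the homeodomain factor, with 9.28 in ES13 and 8.65 in ES14, against 10.88, 10.79, 11.49 and 11.14 in ES21 to ES24. Klf2, Klf5 and Nr5a2 were lower as well, by 1.76, 2.05 and 2.68 on the means. Prdm14, a PR-domain factor, missed the rule with 5.93 in ES13 and 5.03 in ES14, against 6.74 to 7.42 in ES21 to ES24.

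The remaining naive state markers differed by less than Fbxo15. Gdf3, a TGF-beta family ligand, read 6.73 in ES13 and 5.68 in ES14, against 9.21, 9.13, 10.53 and 10.06 in ES21 to ES24. Jam2, Tcl1, Tet2, Manba and Dppa3 were also lower, with means 2.29 to 3.31 log2 below those of ES21 to ES24; the Dppa3 call was lost with means over all probe sets. Tet2, an enzyme that oxidises methylated cytosine, was the naive gene with the clearest excess of ES14 over ES13 among those called, with 6.11 in ES13 and 7.63 in ES14. In the leukaemia inhibitory factor pathway Socs3, its feedback inhibitor, was lower with 6.02 in ES13 and 6.37 in ES14, against 7.98 to 8.39 in ES21 to ES24, whereas the receptor genes Lifr and Il6st differed by 0.31 and -0.03 and their factor Stat3 by -0.78. Tbx3, a T-box factor of ES cells that also acts in early mesendoderm, was the exception: it was higher in both arrays, with 10.28 in ES13 and 10.14 in ES14, against 8.90, 8.88, 8.81 and 8.34 in ES21 to ES24.

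**Figure D2:**
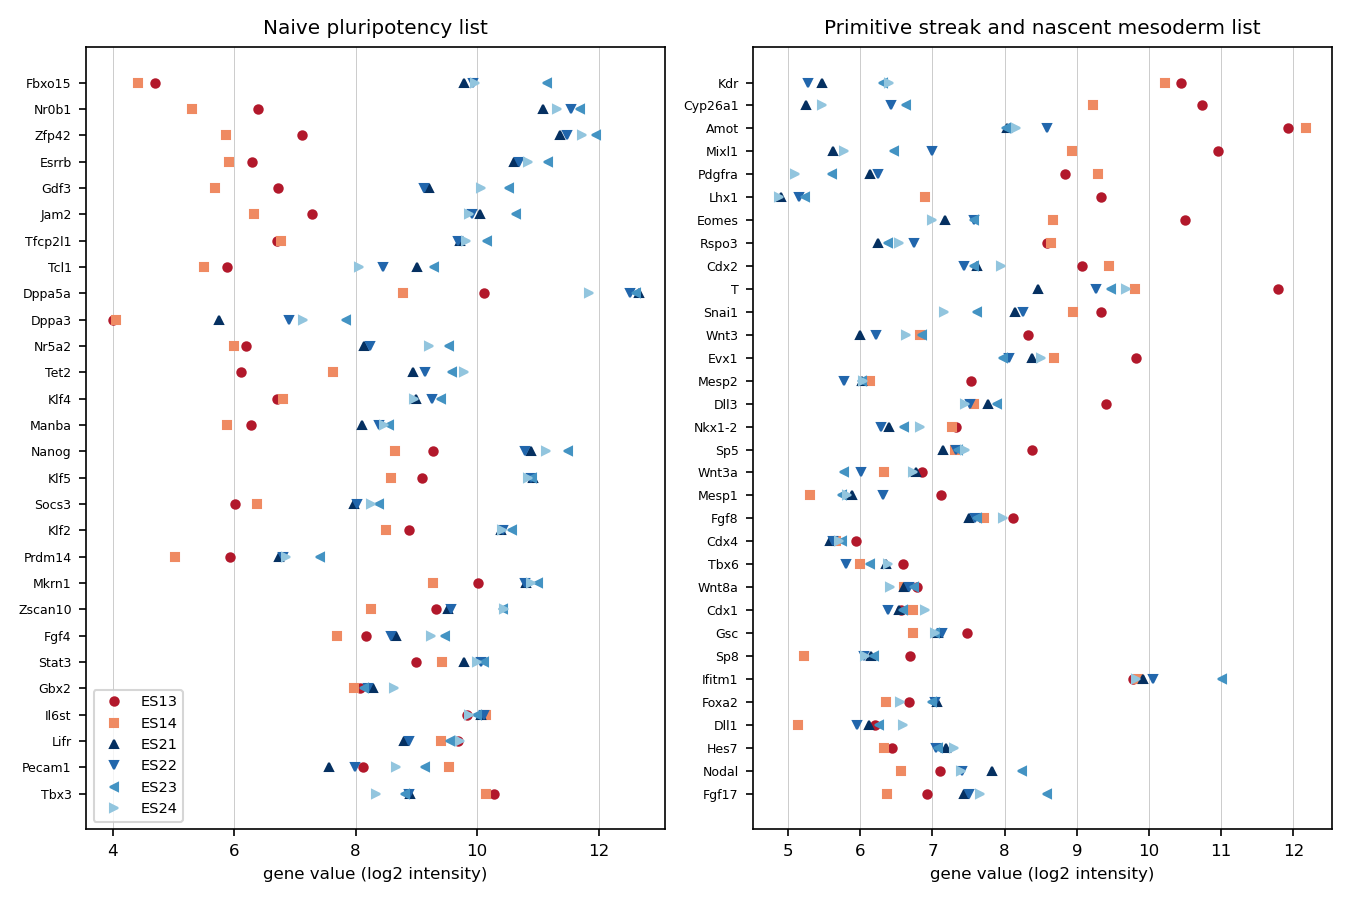
Gene values (horizontal axis, log2 intensity) of the 28 naive pluripotency genes and the 32 primitive streak and nascent mesoderm genes, 1 row a gene and 1 symbol an array, ordered by the difference of the means. ES13 (red circles) and ES14 (orange squares) lie left of the blue triangles of ES21 to ES24 for most naive genes; for streak genes such as T and Mixl1 ES13 lies to the right of ES14.

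Factors that naive and primed cells share were less far apart between the sets. Of 13 measured, 4 were lower and 0 higher. Sox2, the partner of Pou5f1, read 8.50 in ES13 and 8.36 in ES14, against 10.95, 11.01, 11.44 and 11.36 in ES21 to ES24. Utf1, a chromatin-associated factor, read 9.92 in ES13 and 8.72 in ES14, against 12.00, 11.81, 12.49 and 11.95 in ES21 to ES24. Dppa2 and Dppa4, a pair of SAP-domain proteins, were lower by 2.21 and 1.47, and Dppa2 was not called after quantile normalisation, nor Dppa4 under 4 of the 7 other ways of forming, filtering or scaling gene values, centring and quantile normalisation among them. The filters among the 7, on probe set number and on brightness, left gene values unchanged and so could lose no call. Pou5f1 itself read 10.38 in ES13 and 8.88 in ES14, against 11.28, 11.23, 11.70 and 11.44 in ES21 to ES24: the sets did not overlap, but ES13 came within 1 log2 of ES22. The RNA-binding protein gene Lin28a, at 11.64 in ES13 and 11.57 in ES14, and Sall4, at 11.12 in ES13 and 11.04 in ES14, lay within the range of ES21 to ES24.

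The primed epiblast list did not set the 2 arrays apart as a pair. Of 17 genes 0 were higher, or 1 once arrays were centred, and 2 were lower, and the median difference was 0.22, or -0.38 with ES14 alone. The lower genes were Enpp3, an ectonucleotidase, with 6.92 in ES13 and 6.10 in ES14 against 8.78 to 9.81 in ES21 to ES24, and Slc7a3, an amino acid transporter, with 9.34 in ES13 and 8.21 in ES14, against 10.75 to 11.62 in ES21 to ES24. Otx2, the homeobox factor that directs exit from the naive state, read 7.26 in ES13 and 6.55 in ES14, against 7.11, 7.55, 8.24 and 7.81 in ES21 to ES24. Car14, a carbonic anhydrase, came nearest to a call on the high side, with 7.64 in ES13 and 6.91 in ES14, against 5.82, 6.13, 5.72 and 5.69 in ES21 to ES24.

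Genes of the streak and of nascent mesoderm were higher in part. Of 32 measured, 9 were higher, 0 lower and 23 neither, with a median difference of 0.65. That median was 1.12 with ES13 alone and 0.09 with ES14 alone. When gene values were medians over all probe sets, 10 were higher and 1 lower. By role, 4 of 18 transcription factors, 2 of 10 ligands and modulators and 3 of 4 receptor and membrane genes were higher.

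Of the streak transcription factors, Eomes, a T-box factor needed for definitive endoderm and early mesoderm, read 10.50 in ES13 and 8.67 in ES14, against 7.17, 7.58, 7.57 and 6.99 in ES21 to ES24. Lhx1, a LIM homeobox factor of anterior streak and mesendoderm, read 9.33 in ES13 and 6.89 in ES14, against 4.90, 5.15, 5.23 and 4.88 in ES21 to ES24. Cdx2, a caudal homeobox factor of posterior streak and trophectoderm, read 9.07 in ES13 and 9.44 in ES14, against 7.61, 7.43, 7.57 and 7.95 in ES21 to ES24. Lhx1 and Eomes were far higher in ES13 than in ES14, and Cdx2 was not; the Eomes call was lost with means over all probe sets. T (brachyury), the T-box factor that marks the whole streak, read 11.79 in ES13 and 9.81 in ES14, against 8.46, 9.27, 9.47 and 9.68 in ES21 to ES24, so ES13 stood 2.11 log2 above ES24 and ES14 only 0.13 above it. Mesp1, a factor of cardiac and cranial mesoderm, read 7.12 in ES13 and 5.31 in ES14, against 5.89, 6.32, 5.75 and 5.81 in ES21 to ES24. Tbx6, Cdx1, Cdx4 and Gsc were within 0.14 log2 of ES21 to ES24 on the means, and the node and endoderm factor Foxa2 was 0.39 below.

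Of the receptor genes, Kdr, the VEGF receptor of blood and endothelial precursors, was among the most different genes measured: 10.44 in ES13 and 10.22 in ES14, against 5.47, 5.28, 6.31 and 6.40 in ES21 to ES24, a 22-fold difference with all 35 of its probe sets shifted the same way. Pdgfra, the PDGF receptor of paraxial and cardiac mesoderm, read 8.83 in ES13 and 9.29 in ES14, against 6.13, 6.25, 5.61 and 5.09 in ES21 to ES24. Amot, an angiomotin that binds tight junctions and Hippo pathway proteins, read 11.93 in ES13 and 12.17 in ES14, against 8.03, 8.59, 8.02 and 8.16 in ES21 to ES24. ES13 and ES14 were within 0.46 log2 of each other for these 3 genes.

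The enzyme Cyp26a1, which breaks down retinoic acid and is known to be made at the streak, read 10.74 in ES13 and 9.22 in ES14, against 5.25, 6.42, 6.63 and 5.47 in ES21 to ES24. Among the streak ligands, Wnt3 read 8.33 in ES13 and 6.83 in ES14, against 5.99, 6.22, 6.85 and 6.63 in ES21 to ES24. Fgf8 read 8.12 in ES13 and 7.72 in ES14, against 7.50 to 7.97 in ES21 to ES24. Nodal read 7.10 in ES13 and 6.57 in ES14, against 7.83, 7.41, 8.24 and 7.39 in ES21 to ES24, below the 4 arrays in each case. Wnt3 was thus above the C57BL/6 range in ES13 only.

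Members of the Wnt pathway, which induces the streak, were higher in 8 of 38 cases and lower in 0. With medians or means over all probe sets, or probe sets ranked over the 6 arrays, 1 was lower. Wnt5a, a ligand of posterior mesoderm, read 9.43 in ES13 and 9.79 in ES14, against 7.26, 7.10, 6.84 and 6.53 in ES21 to ES24. Rspo3, an R-spondin that prolongs receptor life, read 8.58 in ES13 and 8.64 in ES14, against 6.24 to 6.74 in ES21 to ES24, and the R-spondin receptor gene Lgr5 7.86 in ES13 and 8.20 in ES14, against 5.31 to 5.92 in ES21 to ES24. The receptor gene Fzd4 was higher by 1.89. Lef1, a nuclear partner of beta-catenin, read 9.85 in ES13 and 9.77 in ES14, against 6.94, 7.04, 7.26 and 7.76 in ES21 to ES24. The feedback genes Axin2, Nkd1 and Dkk1, which are themselves known to be switched on by this pathway, were higher by 2.44, 1.87 and 2.43. These 8 genes differed between ES13 and ES14 by at most 0.94 log2, but they were picked by a rule that both arrays had to meet. Over all 38 genes 2 were at least 1 log2 higher in ES13, Wnt3 among them, and 1 was lower. The list's median of ES13 minus ES14 was 0.04.

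Windows of 2 signal-responsive genes on chromosome 19 are shown because their known inputs have recognisable letters close to the start. They come from the same RefSeq source and again hold the 250 bases before the start. Cyp26a1, plus strand, chr19:37697558-37697807, holds the letters of a retinoic acid response element: AGGTCA or AGTTCA, repeated in the same orientation with 5 bases between them, searched on both strands and found in 0.0335% of windows. Dkk1, minus strand, chr19:30549497-30549746, holds the TCF and LEF letters CTTTGA at 2 places, 1 on each strand; 13.8% of windows hold at least 1. Capitals mark these letters.
Cyp26a1: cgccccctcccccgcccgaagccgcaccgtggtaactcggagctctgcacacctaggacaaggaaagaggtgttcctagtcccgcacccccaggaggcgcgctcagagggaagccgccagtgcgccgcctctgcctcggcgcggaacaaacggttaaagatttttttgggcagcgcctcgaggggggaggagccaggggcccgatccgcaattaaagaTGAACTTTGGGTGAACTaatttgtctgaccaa
Dkk1: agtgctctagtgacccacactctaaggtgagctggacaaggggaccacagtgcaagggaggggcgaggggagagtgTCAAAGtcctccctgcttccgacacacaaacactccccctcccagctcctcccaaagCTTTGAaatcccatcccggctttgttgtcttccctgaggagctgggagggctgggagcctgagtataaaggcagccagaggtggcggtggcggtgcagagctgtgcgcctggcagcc

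BMP signalling specifies posterior and extraembryonic mesoderm, and 5 of its 20 measured genes were higher and 0 lower. The ligand genes Bmp2 and Bmp7 read 8.28 and 8.25 in ES13 and 8.78 and 8.57 in ES14, and no array of ES21 to ES24 exceeded 5.94 for either. Msx2, a homeobox target of BMP, read 10.86 in ES13 and 10.81 in ES14, against 6.94, 7.26, 7.98 and 6.81 in ES21 to ES24. Smad6 and Bambi, which damp the pathway, were higher by 2.07 each. Receptors and transducers gave 0 calls of 7. ES13 and ES14 were within 0.50 log2 for each of the 5, which the same rule had picked. Over all 20 genes 1 was at least 1 log2 higher in ES13 and 1 lower.

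In the Nodal and activin pathway 1 of 20 genes was higher and 2 were lower. Foxh1, the DNA-binding partner of Smad2, read 9.80 in ES13 and 9.58 in ES14, against 7.30, 7.92, 8.50 and 7.96 in ES21 to ES24. Lefty1, a Nodal inhibitor that ES cells make, read 8.72 in ES13 and 6.90 in ES14, against 10.08, 10.55, 10.97 and 9.74 in ES21 to ES24. The other lower gene was Gdf3. The Foxh1 call was lost when gene values were means over all probe sets or when probe sets were ranked over the 6 arrays, and the Lefty1 call after quantile normalisation. In the FGF pathway 1 of 20 genes was called, Fgf3, a ligand of streak and hindbrain. It read 8.76 in ES13 and 8.61 in ES14, against 5.91, 5.57, 5.45 and 5.51 in ES21 to ES24. After centring or quantile normalisation 2 FGF genes were higher. With medians over all probe sets 1 was higher and 2 lower, and with probe sets ranked over the 6 arrays 1 was higher and 1 lower. None was called of 15 with at least 8 probe sets or of 16 among brighter genes. Fgf3, with 5 probe sets, was itself removed by both of these filters. Of 14 Notch genes 0 were called, and Hey2 and Lfng, with the largest differences there, differed by 1.85 and -1.39. That count depended on how gene values were formed: 3 Notch genes were higher and 1 lower with medians over all probe sets, 3 higher with means over them, 2 higher with probe sets ranked over the 6 arrays, and 1 higher and 1 lower after quantile normalisation.

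**Figure D3:**
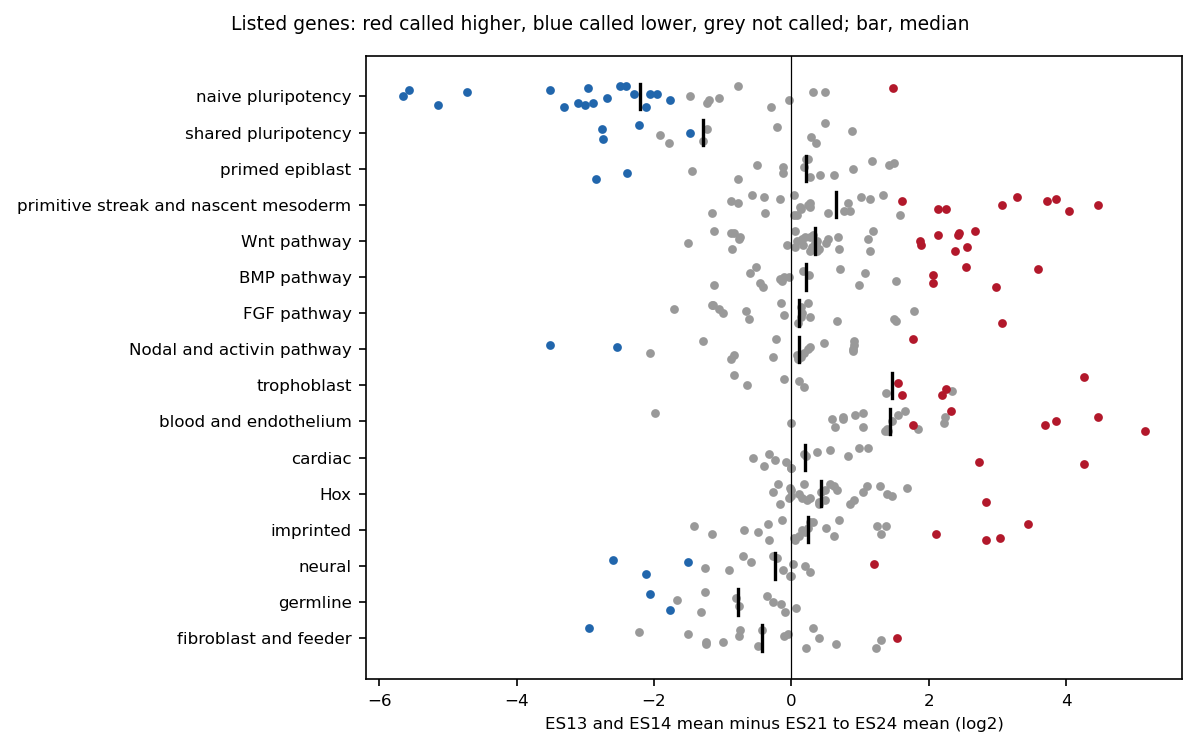
Mean of ES13 and ES14 minus mean of ES21 to ES24 (horizontal axis, log2) for the members of 16 gene lists, 1 point a gene, with the list median as a black bar. Naive genes extend to the left down to Fbxo15 at -5.65, and blood and endothelium genes to the right up to Hbb-bh1 at 5.15, while the primed epiblast median lies at 0.22.

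Genes of blood and endothelium were higher in 6 of 24 cases and lower in 0, with a median difference of 1.44. The count was 10 with medians over all probe sets, 8 with means over them, and 2 of 11 among brighter genes. Lmo2, a LIM-only cofactor of early blood formation, read 10.49 in ES13 and 10.44 in ES14, against 6.33, 6.54, 7.41 and 6.78 in ES21 to ES24. Fli1, an ETS factor of haemangioblasts, read 8.63 in ES13 and 9.49 in ES14, against 5.55, 4.89, 4.94 and 5.45 in ES21 to ES24. Flt1, another VEGF receptor, and Cdh5, the endothelial cadherin, were higher by 1.77 and 2.32. Hbb-bh1, an embryonic beta-like globin of primitive red cells, had the largest positive difference of the named genes. It read 7.10 in ES13 and 10.67 in ES14, against 4.25, 3.38, 3.96 and 3.34 in ES21 to ES24. The beta-like globin genes resemble each other in sequence, so probes may read more than 1 of them. Klhl6, a kelch-like protein of lymphoid and endothelial cells and no member of these lists, read 8.95 in ES13 and 8.66 in ES14, against 4.42, 4.14, 3.87 and 4.49 in ES21 to ES24.

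Between ES13 and ES14, with 1 array on each side, 285 genes were at least 1 log2 higher in ES13 (1.55%) and 227 lower (1.24%). The genes most in excess in ES13 included Lhx1 by 2.44, Fst, the activin-binding follistatin, by 2.12, and Mixl1 by 2.02. Emp1, an epithelial membrane protein, and Ptgs2, the inducible prostaglandin synthase, exceeded ES14 by 2.13 and 2.09. Upp1, uridine phosphorylase, and Cd36, a fatty acid scavenger receptor, exceeded it by 2.08 and 2.32, and Pou5f1-rs4, a Pou5f1-related sequence whose probes may also read Pou5f1, by 2.15. In the streak list 13 of 32 genes were at least 1 log2 higher in ES13 and 0 lower, and in the primed list 6 of 17 and 0. In the shared pluripotency list the counts were 5 of 13 and 0. In the naive list 5 of 28 genes were at least 1 log2 higher in ES13 and 2 lower, with a median of ES13 minus ES14 of 0.37.

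The genes most in excess in ES14 included genes of blood and later mesoderm. Hbb-y, the embryonic epsilon-type globin, read 6.77 in ES13 and 11.44 in ES14, so that ES13 lay within the 6.40 to 7.42 of ES21 to ES24. Gata1, the erythroid zinc finger factor, read 6.59 in ES13 and 8.75 in ES14, against 5.81, 6.10, 6.23 and 5.93 in ES21 to ES24. Acta2, smooth muscle actin, read 9.37 in ES13 and 11.65 in ES14, against 11.02, 10.90, 10.63 and 9.65 in ES21 to ES24. Against ES21 to ES24, ES14 alone stood clear for Hbb-y, ES13 was slightly above them as well for Gata1, and ES14 was the highest of the 6 arrays for Acta2. Another 6 C57BL/6 arrays, ES15 to ES20, read 12.90 to 13.84 for Hbb-y, above ES14, and 8.15 to 10.33 for Gata1, a span that holds ES14. Tcf21, a factor of epicardial and visceral mesoderm, was 2.18 higher in ES14, Igfbp5, which binds insulin-like growth factors, 2.66, and Slc30a10, a manganese exporter, 2.27. Across the blood and endothelium list 11 of 24 genes were at least 1 log2 lower in ES13 and 0 higher. Hoxc8 read 5.73 in ES13 and 8.56 in ES14, against 4.46, 4.01, 4.24 and 4.57 in ES21 to ES24, and was the only Hox gene of 29 called higher; the call was lost with medians or means over all probe sets. Another 4 Hox genes were at least 1 log2 higher in ES14 than in ES13, and 0 were lower.

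**Figure D4:**
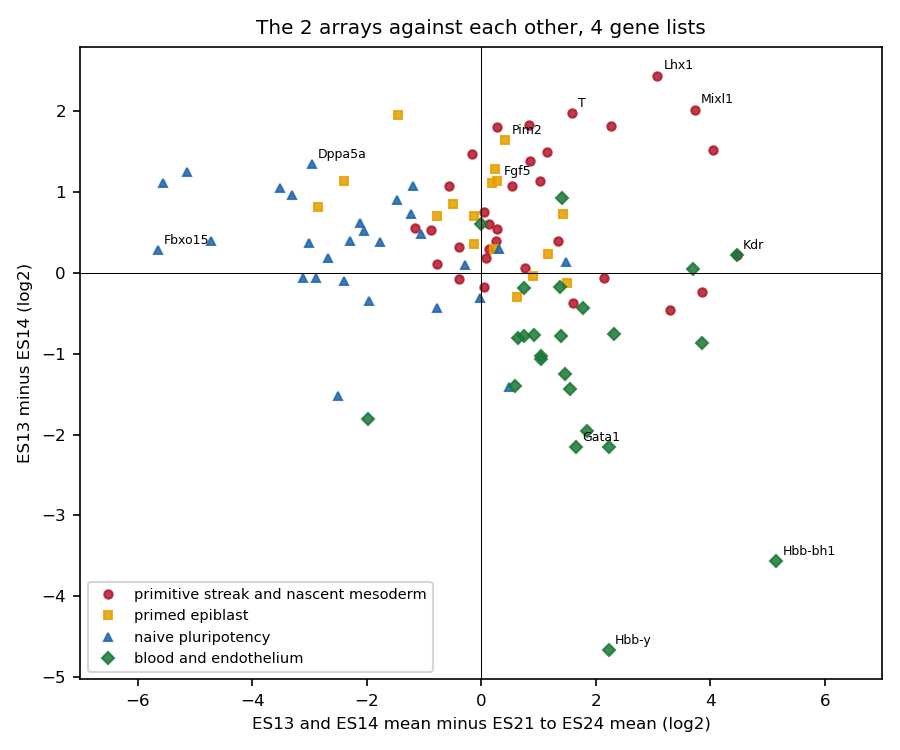
ES13 minus ES14 (vertical axis, log2) against the mean of ES13 and ES14 minus the mean of ES21 to ES24 (horizontal axis, log2), 1 symbol a gene, for 4 lists. Streak genes (red circles) and primed genes (orange squares) lie mostly above the horizontal line, as Lhx1 at 2.44, and blood and endothelium genes (green diamonds) mostly below it, as Hbb-y at -4.67.

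Of the genes called higher in both arrays, 130 of 152 differed by less than 1 log2 between ES13 and ES14, as did 270 of 299 called lower. Of the remaining higher genes 4 were in excess in ES13 and 18 in ES14, and of the remaining lower genes 28 were in excess in ES13 and 1 in ES14. The genes within 1 log2 made up 85.5% of the higher and 90.3% of the lower calls, smaller shares than the 97.2% of all genes. The rule asks both arrays to clear ES21 to ES24, so the shares among calls depend in part on it.

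Several other germ layer and lineage genes were high in both arrays. Hand1, a bHLH factor of extraembryonic and cardiac mesoderm and of trophoblast, read 11.27 in ES13 and 11.81 in ES14, against 7.51, 6.94, 7.14 and 7.49 in ES21 to ES24. In the trophoblast list 5 of 12 genes were higher: Hand1, Eomes, Cdx2, Gata3 and Krt8, of which the first 3 are also streak or mesoderm genes; the Gata3 call was lost with medians over all probe sets. The keratin pair Krt8 and Krt18, of simple epithelia, was higher by 2.20 and 2.22. Tbx20 and Hand1 were the 2 of 16 cardiac genes called higher, and the 2 of 12 in the mesoderm derivatives list. Cxcr4, the chemokine receptor of definitive endoderm and migrating mesoderm, read 9.67 in ES13 and 9.79 in ES14, against 6.39, 6.77, 7.05 and 6.50 in ES21 to ES24, and the zinc finger factors Gata4 and Gata6 were higher by 1.53 and 1.65; these were the 3 of 13 definitive endoderm genes called higher, and the Gata4 call was lost with means over all probe sets. Sox7, of endoderm and haemangioblasts, was higher by 2.08. In the extraembryonic endoderm list 3 of 20 genes were higher, Gata4, Gata6 and Sox7, but 11 of the 20 had negative differences. The median difference was -0.11 in that list, 0.04 in the definitive endoderm list and 0.07 in the mesoderm derivatives list. Trh of the definitive endoderm list and Osr1 of the mesoderm derivatives list were called lower. Of 25 genes of epithelium and mesenchyme 3 were higher, the keratins and the mesenchymal cadherin gene Cdh11 (by 2.84), and 1 was lower, Grhl3, an epithelial grainyhead factor (by 2.07).

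Of 25 imprinted genes 4 were higher and 0 lower. Igf2, the paternally expressed growth factor, read 10.87 in ES13 and 11.82 in ES14, against 8.16, 8.22, 7.78 and 7.43 in ES21 to ES24. H19, the maternally expressed RNA beside it, read 12.89 in ES13 and 13.17 in ES14, against 9.48, 9.21, 11.05 and 10.22 in ES21 to ES24. Peg3 and Mest, both paternally expressed, were higher by 2.84 and 2.11. The paternal and the maternal gene of the Igf2 and H19 locus were thus high together.

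Neural, germline and DNA methylation lists held 4, 2 and 2 calls. Of 16 neural genes 3 were lower, the neuronal tubulin Tubb3, the stathmin Stmn2 and Pax6, and Sox11 was higher. Of 12 germline genes that DNA methylation is known to silence 2 were lower, Hormad1 and Stk31, both with values under 6.5 in all 6 arrays. Of the 7 other ways of forming, filtering or scaling gene values, Pax6 lost the call under 4, Stk31 under 3, Sox11 under 2 (medians and means over all probe sets) and Hormad1 under 1 (means over all probe sets). The filters among the 7 could lose no call. Dnmt3l, the catalytically inactive cofactor of DNA methyltransferases, was far lower, with 7.47 in ES13 and 6.01 in ES14 against 10.13, 9.98, 10.87 and 11.00 in ES21 to ES24, while Dnmt3a differed by 0.22; Dnmt3l and Tet2 were the 2 of 9 DNA methylation genes called lower. Tsix, the antisense partner of Xist, was lower by 2.37, though the strand its probe sets read was not checked, and Xist read 4.84 in ES13 and 4.48 in ES14, against 5.04, 4.51, 5.39 and 5.98 in ES21 to ES24. The Y-linked gene Eif2s3y read 9.60 in ES13 and 9.63 in ES14, against 8.87 to 9.73 in ES21 to ES24.

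A second group of lower genes held no pluripotency factors. Tm4sf1, a tetraspanin-like surface protein, read 7.95 in ES13 and 6.17 in ES14, against 12.41, 12.39, 11.70 and 10.25 in ES21 to ES24. S100a6, a calcium-binding protein, read 6.57 in ES13 and 5.96 in ES14, against 11.64, 11.63, 10.41 and 9.23 in ES21 to ES24. Anxa1, a phospholipid-binding annexin, read 7.95 in ES13 and 6.72 in ES14, against 12.14, 12.23, 11.03 and 10.36 in ES21 to ES24. Each was higher in both ES21 and ES22 than in ES23, and lowest of the 4 in ES24. Emp1 and the caveolar protein gene Cav1 had the same order. Of the naive genes, Zfp42 and Nr0b1 were highest in ES23, whereas Tbx3 and Il6st had that order too. Tm4sf1, S100a6, Anxa1, Emp1 and Cav1 were also high in 2 further C57BL/6 arrays, ES25 and ES26, at 12.32 and 12.79 for Tm4sf1, where Zfp42 read 6.43 and 8.19. Some were high elsewhere too. Over the other 129S2/SvPas arrays S100a6 spanned 9.54 to 11.82, Anxa1 9.91 to 12.62 and Emp1 7.96 to 11.32, while Tm4sf1 reached 8.03 and Cav1 8.55. In ES20, labelled C57BL/6, Anxa1 read 10.25 and Emp1 10.36, but Tm4sf1 6.58. Pla2g1b, a secreted phospholipase, and Serpinb6c, a serpin, completed the 12 lower genes with the largest differences, at 3.62 and 3.58, and were level across ES21 to ES24 to within 0.95 log2.

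**Figure D5:**
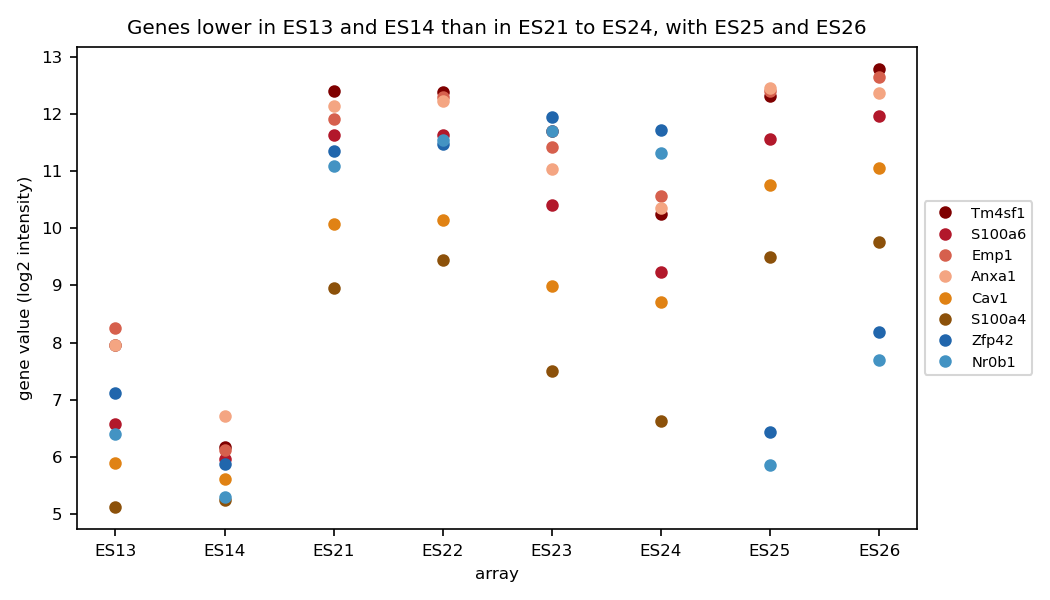
Gene values (vertical axis, log2 intensity) in ES13, ES14, ES21 to ES24, ES25 and ES26 (horizontal axis) for 8 genes lower in ES13 and ES14 than in ES21 to ES24. Tm4sf1 and the other red and brown genes are highest in ES25 and ES26 or in ES21 and ES22, whereas the blue genes Zfp42 and Nr0b1 exceed 11 in ES21 to ES24 alone.

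Fibroblast and feeder genes were examined beside that group, since fibroblasts are used as feeders for ES cells. The mean of the 19 measured genes was 7.00 in ES13 and 7.43 in ES14, against 8.04, 7.98, 7.34 and 6.97 in ES21 to ES24, again highest in ES21 and ES22. S100a4 was lower, with 5.12 in ES13 and 5.24 in ES14, against 8.95, 9.44, 7.50 and 6.62 in ES21 to ES24, Postn was higher by 1.54, and 17 were neither; the S100a4 call was lost with medians and with means over all probe sets. Col1a1 read 10.49 in ES13 and 10.87 in ES14, against 8.83 to 9.79 in ES21 to ES24, and Col1a2 8.91 in ES13 and 9.03 in ES14, against 9.82 to 11.12 in ES21 to ES24. On this scale no gene reads 0, and Lum, Dcn, Fap and Dpt were the dimmest, at 5.21 or less in all 6 arrays. The part of fibroblasts in the lower calls was not tested. Without ES21 and ES22, a choice made after the data were seen, 211 genes were higher and 447 lower, and the naive median was -2.39. Leaving arrays out can only keep or add calls under the rule, so the larger counts say nothing about fibroblasts. Myeloid genes, which dominate the other 129S2/SvPas arrays with list means of 11.12 to 12.18, averaged 5.47 in ES13 and 5.27 in ES14, against 5.10 to 5.39 in ES21 to ES24, and 0 of 16 were called.

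Of 24 cell cycle genes 1 was lower, Cdk6 by 1.66, a call lost after quantile normalisation, and of 12 p53 and apoptosis genes 1 was lower, Perp by 1.36, a call lost under 4 of the 7 other ways, centring among them. As above, the filters among the 7 could lose no call. None of the 23 glycolysis and hypoxia genes, 13 interferon and MHC class I genes, 14 housekeeping and immediate early genes or 4 genes reported to vary between the strains was called. Nnt, whose C57BL/6 deletion is known in a substrain, read 9.01 in ES13 and 9.17 in ES14, against 9.73, 9.72, 9.35 and 9.07 in ES21 to ES24. Its value is a median over the brighter part of 27 probe sets, so loss of a part of the gene need not show. Only 1 of the 4 strain genes was among the brighter genes, so the absence of calls there says little about strain. In the mesoderm derivatives list, Osr1, a factor of intermediate mesoderm, was lower with 6.19 in ES13 and 5.92 in ES14, against 7.33 to 8.82 in ES21 to ES24. In the definitive endoderm list, Trh, the thyrotropin-releasing hormone precursor, was lower with 9.52 in ES13 and 8.16 in ES14, against 11.33 to 12.12 in ES21 to ES24.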

How the data were processed

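RNA was isolated on columns, treated with DNase, amplified in 2 rounds and hybridised as labelled cDNA to Affymetrix Mouse Exon arrays, per the labels' protocols. The deposited values are log2 RMA intensities per probe set from Affymetrix Expression Console in an extended exon analysis, per the labels and the submitters' processing notes. The software's release was not given in the sources used here, and log base 2 is RMA's convention. The table held 631748 probe sets on 26 arrays, with array medians of 5.32 to 5.51. GEO's platform annotation gave 1 symbol to 306069 probe sets (48.4%) and several to 6067, which were left out. Of the symbols 17747 were current in RefSeq, 3805 were updated through a unique synonym and 205 kept.

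Gene values, calls and figures were computed in Python 3.11 with pandas and numpy, and the calling rule was checked on simulated data. Since signals of these genes had chosen the arrays, no test was made. The arrays, the 31 gene lists and the rules were chosen with earlier results of these data known. Named genes are the 4 markers, the 12 called genes with the largest difference each way and the 8 largest between ES13 and ES14 each way, all without provisional symbols and with a share of at least 0.75 of their probe sets moving one way; then up to 8 called members of each list (the 2 largest where none was), and any naive, primed or streak gene. A promoter window matched by symbol for 105 of 152 genes called higher and 233 of 299 called lower. Genes outside this rule (Pou5f1, Lin28a, Sall4, Xist, Eif2s3y, the collagens, the edge genes and those in the closing section) were chosen after their values were seen. Array number limits the precision.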

Additional observations from a re-analysis of the deposited data

Results flagged for a closer look

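For 10 of the 198 named genes and 0 of the 31 list means checked, 1 of the 4 arrays ES21 to ES24 lay far from the other 3, as measured by its gap to the nearest of them divided by their whole range. Chance gives such an array in about 1 of 20 groups, and the 10 genes flagged are about as many as that rate gives for 198. Fbxo15 (ratio 0.874) was highest in ES23 at 11.15, and Tubb3 (0.941) was also highest there at 10.54. Nkd1 (0.853) was lowest in ES23 at 6.25. Klf2 (0.854) was highest in ES23 as well, at 10.57, and Mesp2 (0.944), a factor of presomitic mesoderm, was lowest in ES22 at 5.78. Tbx3 (0.846), Foxa2 (0.872) and Dcn (0.85), a proteoglycan of connective tissue, were lowest in ES24, at 8.34, 6.55 and 4.22. Ptgs2 (0.926) was lowest in ES24 at 9.28, near the 9.22 of ES13 and above the 7.14 of ES14. Slc30a10 (0.841) was highest in ES21 at 5.80, above the 5.50 of ES13 and below the 7.77 of ES14.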

How the results depend on the processing

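The naive list kept a median difference between -2.41 and -1.96 over the alternatives run. After centring the arrays and after quantile normalisation alike, 18 naive genes were lower, and 9 streak, 8 Wnt, 5 BMP and 6 blood and endothelium genes were higher, as without scaling. Other choices moved some of these counts by over 1.5 times: blood and endothelium genes to 10 with medians over all probe sets, BMP genes to 2 of 13 with at least 8 probe sets, and, among brighter genes, streak genes to 5 of 14, Wnt genes to 4 of 23, BMP genes to 3 of 14 and blood and endothelium genes to 2 of 11. Shared pluripotency genes called lower numbered 2 after quantile normalisation and 2 of 7 with at least 8 probe sets. Of 110 called genes named, 18 lost the call under at least 1 of 7 ways of forming, filtering or scaling gene values. The filters among the 7, on probe set number and on brightness, left gene values unchanged and so could lose no call. The primed list's median ranged from -0.38 (without ES13, the 1 reversed value) to 0.47 over the arrays left out. The streak list's median was 0.94 with means over all probe sets, 1.30 with at least 8 probe sets and 1.18 over brighter genes, and it ranged from 0.09 to 1.12 and the naive median from -2.33 to -2.12 with 1 array left out. Genes higher in ES13 and ES14 numbered 399 at a gap of 0.5 log2, 39 at 2 log2, 388 at any gap with a difference of 1 log2 and 87 among brighter genes, and 154 to 331 with 1 array left out. Genes lower numbered 829, 47 and 874 under the same gaps and 303 to 539 with 1 array left out. Leaving an array out can only keep or add such calls. Between ES13 and ES14, genes higher and lower in ES13 numbered 118 and 117 with means over all probe sets, 100 and 53 among brighter genes, 1653 and 1549 at 0.5 log2, and 11 and 12 at 2 log2; 171 were higher with at least 8 probe sets, where fewer genes were measured. For those not set by the gap or the number of genes, the cause was not tested. Of 2648 recomputed differences of named genes, 2337 moved by less than 1 SD within sets and 0 called genes turned direction. Differences recomputed under the filters could not move, and a called gene cannot turn direction when arrays are left out, so these counts overstate stability. No paired analysis was possible because no test was made and the labels pair no samples. With 2 arrays against 4, the spread within sets rests on few values, and since the arrays were chosen on this contrast it supports no test.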

Other observations

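Of the 677 measured X-linked genes, 15 were called higher in ES13 and ES14 (2.22%) and 14 lower (2.07%), against 136 (0.775%) and 284 (1.62%) of 17541 autosomal genes. By chromosome, the autosomal share of higher calls ran from 0.185% to 1.26%. Capn6, a calpain-like protein without protease activity, read 8.56 in ES13 and 10.11 in ES14, against 5.18, 5.18, 4.86 and 4.64 in ES21 to ES24. Zfp711, a zinc finger protein, read 8.04 in ES13 and 9.08 in ES14, against 4.08, 4.67, 5.06 and 4.87 in ES21 to ES24. Gpc3, a glypican that restrains growth, read 11.52 in ES13 and 11.37 in ES14, against 7.90, 8.44, 9.52 and 8.93 in ES21 to ES24. The rest were Amot, Nhsl2, Cnksr2, Nxf7, Spin2c, Morc4, Asb12, Dgkk, Stard8, Nrk, Pwwp3b and Foxo4. The median of brighter X-linked genes minus that of brighter autosomal genes was -0.06 in ES13 and 0.10 in ES14, against -0.08, -0.01, -0.06 and -0.03 in ES21 to ES24.

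A pair of lists was added after the data were seen. Of 17 measured retinoic acid genes 1 was higher, Cyp26a1, and 0 were lower: the related enzyme genes Cyp26b1 and Cyp26c1 differed by 0.29 each, and Aldh1a2, which makes retinoic acid, read 5.93 in ES13 and 7.30 in ES14, against 6.08, 5.73, 6.29 and 5.52 in ES21 to ES24. Of 14 Hippo pathway genes 1 was higher, Amot, and 1 lower, the target gene Ankrd1, with 5.14 in ES13 and 5.24 in ES14, against 9.18, 9.22, 8.91 and 7.62 in ES21 to ES24. The co-activator Yap1 read 10.59 in ES13 and 10.36 in ES14, against 10.14, 10.16, 9.87 and 10.23 in ES21 to ES24. Ankrd1 read 10.00 and 10.67 in ES25 and ES26. Hapln1, a link protein of hyaluronan matrix, was among the 12 named genes called higher with the largest differences. It read 6.91 in ES13 and 8.49 in ES14, against 3.85, 3.96, 4.20 and 3.87 in ES21 to ES24.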
